A study of Mus musculus with 2 samples.

Results

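The genes described are 33 genes of the exocrine pancreas: digestive enzyme precursors of acinar cells, proteins of their secretory granules, and transcription factors that control them. They were listed by symbol and looked up in the gene tables of both libraries by Ensembl identifier, and all 33 were found among 43346 mouse gene entries. The genes were chosen by their function and by the TPM levels of pancreatic enzymes, and the unequal levels of the 2 libraries, already seen in these same data, so both are given here as descriptions with no test. The samples were 2 libraries of total RNA from intestine of mouse embryos at embryonic day 15.5, strain B6NCrl, healthy, with male and female embryos pooled. Replicate 1 came from 78 embryos and replicate 2 from 62 embryos, and both form 1 group with no genetic change or treatment. Each library is therefore a single pool, and no pancreas, other tissue or other age was analysed here. The tables hold 33665128 and 39953610 estimated counts on mouse genes in replicates 1 and 2. The labelled tissue matched its defining genes: all 16 gut epithelium genes of a fixed list were above a TPM of 1 in both libraries, with Cdx2 at 29.9 and 32.0. TPM is a transcript level scaled by length and by the total of its library, so it can be compared between genes.

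As background, acinar cells make up most of the pancreas, which buds from the gut endoderm beside the duodenum. They store digestive enzymes as inactive precursors (zymogens) in granules. The transcription factor Ptf1a is made early in pancreatic progenitors. It later joins the E proteins and Rbpjl in the PTF1 complex, which binds acinar enzyme promoters at an E-box (letters CANNTG) next to a TC-box (TTTCCC). Because a single age was sampled, the order given below is an order of levels, and an order of onset in time cannot be read from it.

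Of the 33 genes, 27 reached a TPM of 1 in each library, beside 34.6% of all gene entries, and Ctrl passed that level in replicate 1 only. The 33 genes together took 1.34% of all TPM in replicate 1 and 0.509% in replicate 2 (mean 0.926 ± 0.589%, SD, n = 2). The 4 highest genes, Clps, Pnliprp1, Ctrb1 and Amy2a5, held 71.0% and 69.3% of that total. The same 10 genes were the 10 highest in each library, 16 of the 33 held the same rank in both, and no gene moved by more than 2 ranks. So the order of the enzymes was nearly the same in both pools, while replicate 1 held more of most of them.

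**Figure D1:**
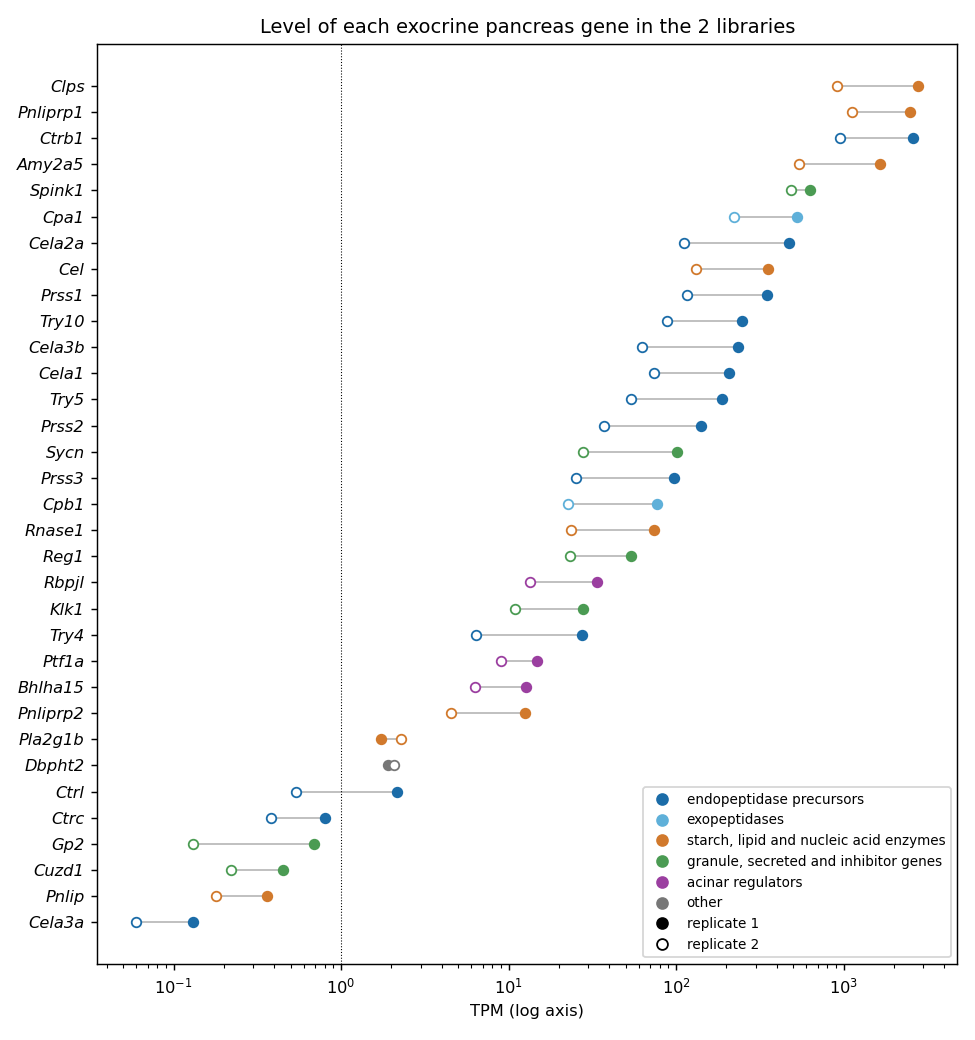
TPM (log axis) of each of the 33 exocrine pancreas genes, ordered by mean level, with filled circles for replicate 1, open circles for replicate 2, colours for the role of the gene and a dotted line at a TPM of 1. Filled circles lie to the right of open ones for every gene except Pla2g1b and Dbpht2, and levels span from 0.06 for Cela3a to 2798 for Clps.

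Genes for the digestion of fat, starch and RNA included both the highest and some of the lowest members. Clps, which encodes the colipase that anchors pancreatic lipase to fat droplets (ENSMUSG00000024225.4, chromosome 17, 28558149 to 28560766), was at a TPM of 2798 in replicate 1 and 910.0 in replicate 2. Pnliprp1, a lipase-related protein (ENSMUSG00000042179.5), was at 2507 and 1124. Cel, the bile salt-dependent lipase, was at 353 and 132, and the ribonuclease gene Rnase1 at 73.7 and 23.4. Replicate 1 was the higher library for each of these. The fold between the libraries (TPM of replicate 1 over replicate 2) was 3.07 for Clps (95% exact binomial interval 3.01 to 3.14), 2.23 for Pnliprp1 (2.21 to 2.25), 2.68 for Cel (2.60 to 2.76) and 3.14 for Rnase1 (2.85 to 3.47). These intervals rest on the counts of each gene and cover counting error only, not the variation between pools of embryos.

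The lipase genes were far apart in level. Pnlip, the classical pancreatic triglyceride lipase, had 12 and 7 counts, a TPM of 0.36 and 0.18, although its cofactor gene Clps had the highest mean TPM of the list. Pnliprp2, a galactolipase and lipase of suckling mice, lay between them at 12.6 and 4.54, a fold of 2.78 (2.34 to 3.32). Pla2g1b, the secreted phospholipase, was at 1.73 and 2.27 (19 and 29 counts). Pla2g1b was higher in replicate 2, but the interval of its fold, 0.404 to 1.41, holds 1.

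Amylase reads could be placed in the family but not in a single gene. Amy2a5 (ENSMUSG00000074268.3, chromosome 3, 113247178 to 113258837) was listed at 1641 and 546, a fold of 3.01 (2.96 to 3.05) before the uncertainty of read placement. Its 1527 coding bases have 0 mismatches to those of the neighbouring entries Amy2a2, Amy2a3 and Amy2a4. The first 75 coding bases, shown because all 4 genes share them, read as follows in the GENCODE transcripts.
Amy2a5, Amy2a2, Amy2a3 and Amy2a4: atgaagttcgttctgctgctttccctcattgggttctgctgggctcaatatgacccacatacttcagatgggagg
The deposited posterior SD of the count was 54.3% and 57.8% of the estimated count of Amy2a5, and its deposited credibility bounds ran from 245 to 3137 in replicate 1 and from 44.6 to 1039 in replicate 2. No source used here states the level of these bounds. Summed over 6 entries (Amy2a1 to Amy2a5 and Amy2b), amylase stood at 5940 and 2319, a fold of 2.56, which is above Clps in both libraries. The salivary-type gene Amy1 was at 2.25 and 1.91.

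The endopeptidase precursors were led by chymotrypsinogen. Ctrb1 (ENSMUSG00000031957.5, chromosome 8, 111686519 to 111691010), which makes chymotrypsinogen B, was at 2585 and 949.8, a fold of 2.72 (2.68 to 2.77). The other chymotrypsin genes were near the detection limit, with Ctrl at 2.17 and 0.54 (41 and 12 counts) and Ctrc at 0.80 and 0.38 (12 and 5 counts). Thus Ctrb1 was the only abundant gene among these 3. Ctrc overlaps the locus of Cela2a and shares 19.2% of its 31-base words with it, so the few reads on Ctrc are uncertain.

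Of the 4 elastase genes, 3 were abundant and differed widely between the libraries. Cela2a (ENSMUSG00000058579.5, chromosome 4) was at 476 and 111, Cela3b at 233 and 62.7, and Cela1 at 207 and 74.3. The fold was 4.29 for Cela2a (4.12 to 4.47), 3.72 for Cela3b (3.50 to 3.95) and 2.79 for Cela1 (2.65 to 2.93), so the interval of each of the 3 genes lies apart from those of the other two. The fourth, Cela3a, a close copy of Cela3b on the same chromosome that shares 45.8% of its words with it, had 2.72 and 1.51 estimated counts, a TPM of 0.13 and 0.06.

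Among the trypsinogens, inactive forms of trypsin encoded side by side on chromosome 6, Prss1 was highest at 351 and 116. Try10 was at 248 and 87.9, Try5 at 189 and 54.2, Prss2 at 140.4 and 37.2, Prss3 at 97.2 and 25.3, and Try4 at 27.6 and 6.43. All 6 listed trypsinogens were higher in replicate 1, by 2.81-fold (Try10, 2.67 to 2.97) to 4.29-fold (Try4, 3.52 to 5.27). Between these lay Prss1 at 3.02 (2.87 to 3.17), Try5 at 3.49 (3.25 to 3.74), Prss2 at 3.77 (3.47 to 4.10) and Prss3 at 3.85 (3.48 to 4.26). The order of the 6 was the same in both libraries. Unlisted copies were also abundant, Gm5771 at 103 and 35.05 and Gm10334 at 80.1 and 23.1, and all 12 trypsinogen entries together stood at 1241 and 388.

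The trypsinogen copies are similar but, unlike the amylases, distinct in sequence. The first 75 coding bases are shown for 7 entries of equal coding length to show how few bases tell them apart; capitals mark bases that differ from Prss1, and all 7 share the run of bases from coding base 55 to the lysine codon, which encodes the acidic end of the activation peptide that enteropeptidase cuts. The sequences are from the GENCODE M21 transcripts.
Prss1: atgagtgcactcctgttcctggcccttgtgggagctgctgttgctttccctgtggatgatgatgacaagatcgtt
Try10: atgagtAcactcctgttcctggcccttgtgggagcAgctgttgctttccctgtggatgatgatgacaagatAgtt
Try5: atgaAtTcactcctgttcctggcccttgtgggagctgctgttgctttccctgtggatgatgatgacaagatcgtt
Prss2: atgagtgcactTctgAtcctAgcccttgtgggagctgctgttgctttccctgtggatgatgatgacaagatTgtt
Prss3: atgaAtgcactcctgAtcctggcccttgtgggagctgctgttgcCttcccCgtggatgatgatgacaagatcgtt
Gm10334: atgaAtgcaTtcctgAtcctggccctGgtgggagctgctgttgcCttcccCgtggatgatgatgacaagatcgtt
Try4: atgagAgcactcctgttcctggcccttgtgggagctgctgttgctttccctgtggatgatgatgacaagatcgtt
Over the whole coding sequence of 741 bases the mismatches to Prss1 number 24 for Gm10334, 27 for Prss3, 49 for Try4, 57 for Try10, 58 for Try5 and 77 for Prss2. Gm5771 has 738 coding bases. The shared part of the 31-base words ranged from 22.5% for Prss2 to 82.7% for Try4. The deposited SD of the count was 0.403% of the estimate for Prss1 in replicate 1 and 6.37% for Try4 in replicate 2, the latter being the highest among the 6 listed genes. Enteropeptidase itself, Tmprss15, the brush border protease that starts trypsinogen activation in the gut, had 2 counts in replicate 1 (TPM 0.02) and 0 in replicate 2, where 3 counts would be a TPM of 0.0281.

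**Figure D2:**
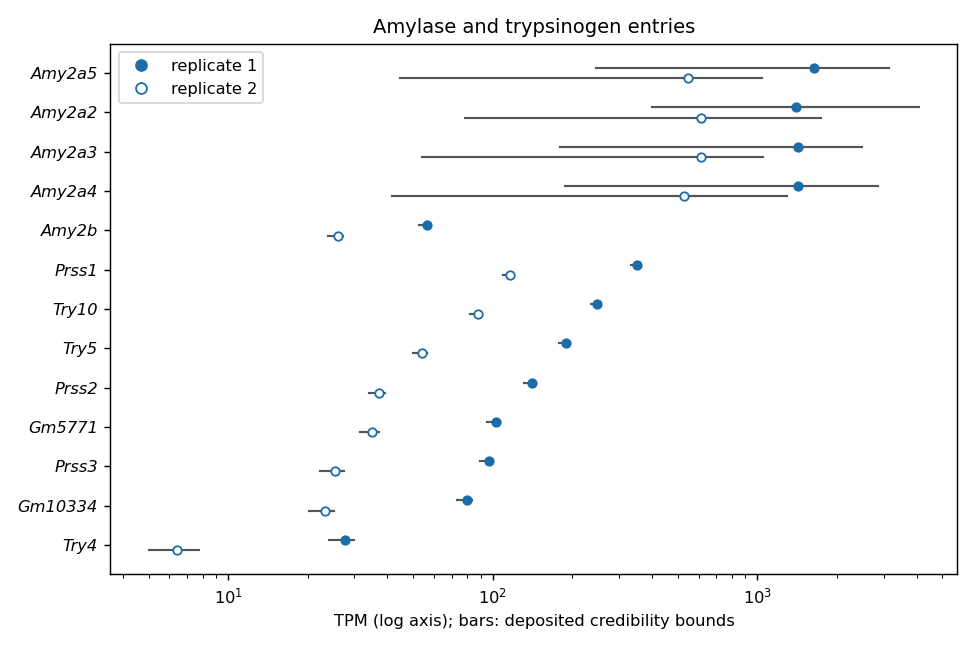
TPM (log axis) of 5 amylase and 8 trypsinogen entries, with filled circles for replicate 1, open circles for replicate 2 and bars for the deposited credibility bounds of TPM. The bars of Amy2a2 to Amy2a5 span more than a factor of 10 (for example 245 to 3137 for Amy2a5 in replicate 1), whereas those of Amy2b and the 8 trypsinogen entries plotted are narrow and do not overlap between the libraries.

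The carboxypeptidases cut amino acids from the ends of peptides. Cpa1 (ENSMUSG00000054446.8, chromosome 6), known also as a marker of the progenitors at the tips of the pancreatic tree, was at 525 and 223, a fold of 2.36 (2.30 to 2.41). Cpb1, carboxypeptidase B, was at 76.5 and 22.7, a fold of 3.37 (3.18 to 3.56). Cpb1 thus differed more between the libraries than Cpa1, by more than counting error.

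Among granule and secreted genes, Spink1, a trypsin inhibitor secreted with the zymogens, was at 628 and 485. Its fold of 1.30 (1.24 to 1.35) was the lowest of the 23 genes whose mean TPM reached 10. The granule gene Sycn (syncollin) was at 101 and 27.9, a fold of 3.62 (3.21 to 4.09), the lectin-like gene Reg1 at 54.0 and 23.4, and the kallikrein gene Klk1 at 28.0 and 11.0. The fold was 2.31 for Reg1 (2.06 to 2.60) and 2.55 for Klk1 (2.18 to 2.98), both below that of Sycn. Gp2, the main membrane glycoprotein of mature zymogen granules, was at 0.69 and 0.13 (31 and 7 counts), and Cuzd1 at 0.45 and 0.22 (23 and 13 counts). Klk1 shares 40.5% of its words with other genes, chiefly kallikreins, of which the 8 copies on the list were all below a TPM of 1.

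The acinar regulators were lower than most enzymes, and 2 of them, Ptf1a and Bhlha15, were less unequal than most enzymes. Rbpjl, the acinar form of the Notch effector Rbpj, was at 33.7 and 13.4, a fold of 2.51 (2.33 to 2.71), above that of the enzyme-related gene Pnliprp1 (2.23). Ptf1a (ENSMUSG00000026735.2, chromosome 2) was at 14.8 and 9.05, a fold of 1.64 (1.43 to 1.88). Bhlha15, also called Mist1, which organises the secretory apparatus, was at 12.7 and 6.34, a fold of 2.00 (1.81 to 2.22). All 3 were higher in replicate 1, and only Rbpjl was called 2-fold apart on the TPM + 1 scale used for calls below. Ptf1a shares 37.6% of its words with the antisense gene Ptf1aos. No source used here says if reads were assigned by strand, so part of the Ptf1a reads may be antisense. Dbpht2, the remaining gene of the list and annotated as a long noncoding RNA, was at 1.90 and 2.08 (fold 0.913, 0.722 to 1.15).

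Across the list, differences between the libraries were counted on log2((TPM + 1) of replicate 1 over (TPM + 1) of replicate 2), which understates the change of low genes, and a gene was called at 2-fold or more. Of the 28 members that reached a TPM of 1 in replicate 1 or 2, 23 were called higher in replicate 1, none in replicate 2, and 26 had a positive ratio. Among all 15978 genes at that level, 1.35% were called higher in replicate 1 and 0.958% in replicate 2. The list was chosen with this difference known, so nothing is read from the count. Among the 23 members whose mean TPM reached 10, 21 were called, beside 0.577% of all genes at that level. At a limit of 1.5-fold the count was 25 of 28, beside 2.82% of all genes. The median log2 ratio of the 28 members was 1.45 and that of all genes -0.02. With 1 library on each side there is no replicate check of the difference, and fewer acinar cells in a pool cannot be told apart from less RNA per cell.

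**Figure D3:**
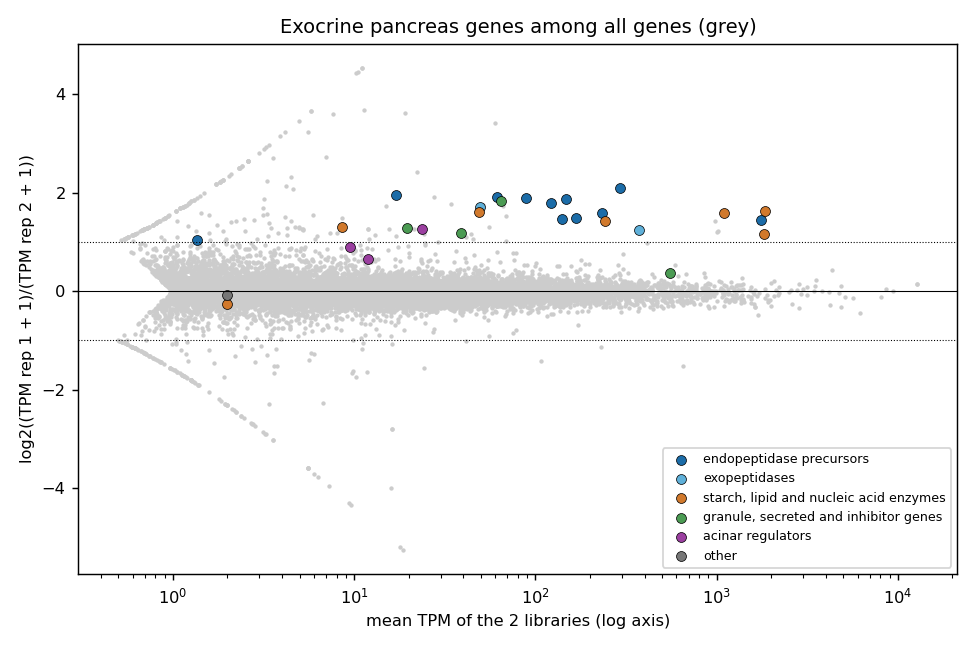
Log2 ratio of (TPM + 1) in replicate 1 over replicate 2 against mean TPM (log axis) for genes that reach a TPM of 1 in either library, all other genes in grey and the exocrine pancreas genes coloured by role, with dotted lines at 2-fold. Members whose mean TPM reaches 10 sit between 0.37 (Spink1) and 2.09 (Cela2a), and 21 of those 23 lie on or above the upper dotted line.

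By role, the median log2 ratio was 1.78 for the endopeptidase precursors (11 of 11 called), 1.41 for the starch, lipid and nucleic acid enzymes (6 of 7), 1.22 for the granule, secreted and inhibitor genes (3 of 4) and 0.90 for the regulators (1 of 3). Both carboxypeptidases were called. With the spike-in total as scale, the count of called members fell from 23 to 19. Among the 24 members checked singly (mean TPM of at least 10, or a regulator), Cpa1 (0.98), Pnliprp1 (0.90) and Reg1 (0.93) fell below the log2 limit of 1. Set against Cpa1 within each library, 18 of the other 22 genes whose mean TPM reached 10 stood higher in replicate 1. Cela2a was at 90.6% of Cpa1 in replicate 1 and 49.7% in replicate 2, Prss2 at 26.7% and 16.7%, and Sycn at 19.2% and 12.5%. In the opposite direction Spink1 was at 120% of Cpa1 in replicate 1 and 217% in replicate 2, Ptf1a at 2.83% and 4.06%, and Pnliprp1 at 477% and 504%. For 3 of the 22 genes the interval of the fold held the value of Cpa1. These intervals leave out the variation between pools and, for Amy2a5, the placement of reads, so differences in fold among the members were not tested against either. Neither level nor transcript length ordered the folds: across these 23 genes Spearman's rho with the log2 ratio was -0.10 for mean TPM and -0.22 for length (genes of the same 2 libraries, given as a description).

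**Figure D4:**
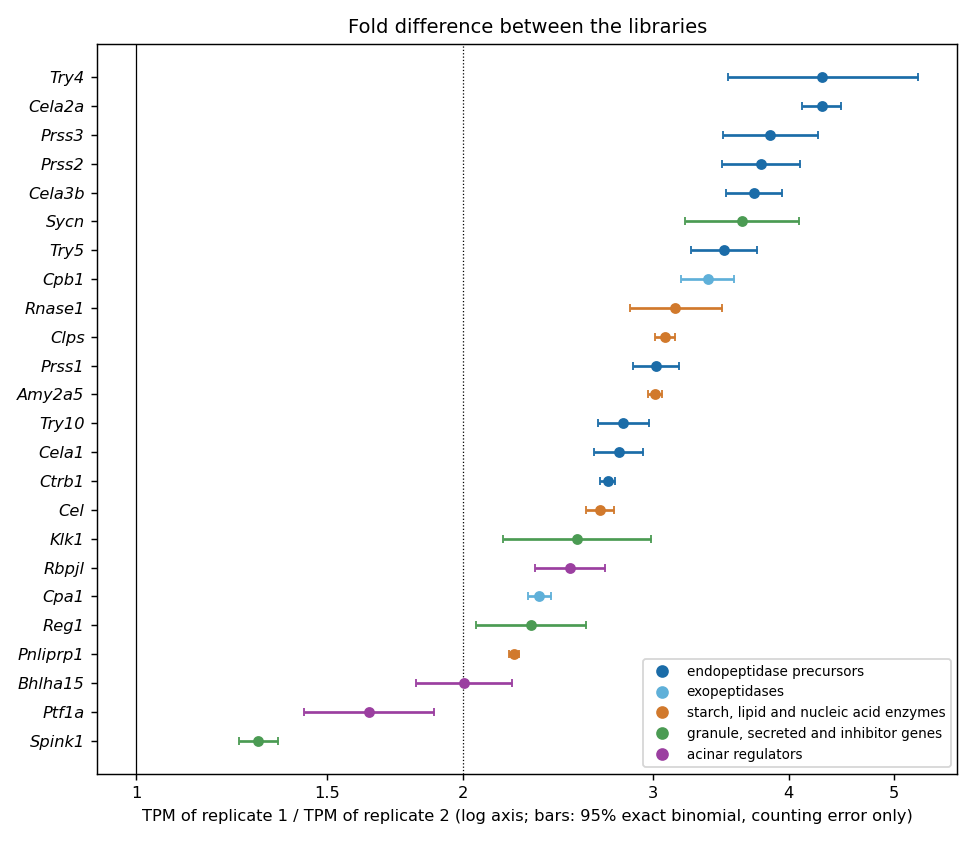
Fold difference (TPM of replicate 1 over replicate 2, log axis) of the genes whose mean TPM reaches 10 and of the regulators, coloured by role, with 95% exact binomial intervals that cover counting error only and lines at 1 and 2. Folds run from 1.30 for Spink1 and 1.64 for Ptf1a to 4.29 for Cela2a and Try4, with Cpa1 at 2.36.

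The 10 protein-coding genes of largest ratio toward replicate 1, among 8803 whose mean TPM reached 10, included 7 members (Cela2a, Try4, Prss3, Prss2, Cela3b, Sycn and Try5) and the trypsinogen copy Gm10334. The others were Akr1b7, an aldo-keto reductase, at 36.3 and 2.06, and Cym, the milk-clotting protease chymosin, at 110.5 and 9.52. These exceeded every member, with folds of 17.6 and 11.6.

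Transcript tables gave the same main product in both libraries. Of the 33 genes, 22 have 1 transcript in the tables. In Cela2a the coding transcript took 93.3% and 92.9% of output in replicates 1 and 2, and in Amy2a5 98.0% and 96.7%. Cel gave 20.0% and 20.7% to a short processed transcript. Rbpjl was the most divided abundant gene, with 60.0% and 53.8% on the coding transcript and 23.8% and 27.5% on a retained-intron transcript. The larger share of noncoding Rbpjl transcripts was in replicate 2, the library with less of the gene.

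The promoters of the members were read for the boxes of the PTF1 complex. RefSeq windows of 250 bases before to 50 after the start (GRCm38.p6) matched 28 of the 33 genes, and Try5, Try10, Spink1, Clps and Ctrc had none. On either strand, CANNTG occurred in 22 of the 28 windows (78.6%, against 72.3% of all 32851 windows), TTTCCC in 11 (39.3% against 25.2%) and TATAAA in 10 (35.7% against 13.6%). CANNTG followed within 25 bases by TTTCCC occurred in 6 windows, those of Cel, Cela1, Cela3a, Cpa1, Ctrb1 and Prss1 (21.4% against 2.98%). In Cpa1 the pair does not lie wholly within the 250 bases before the start. Related genes, such as the trypsinogens, count as separate windows. In Ctrb1, Cela1 and Prss1 the boxes are 4 bases apart. That spacing, CANNTG and 4 bases later TTTCCC, was looked at after the sequences were seen and occurs in 3 of the 28 windows (10.7%) and in 31 of all 32851 windows (0.0944%). The 250 bases before the start are shown for these 3 genes and for the pair Cela3a and Cela3b, 5′ to 3′ along the gene's strand, with capitals for CANNTG, for TTTCCC and for TATAAA on either strand.
Ctrb1 (chr8:111691011-111691260, minus strand): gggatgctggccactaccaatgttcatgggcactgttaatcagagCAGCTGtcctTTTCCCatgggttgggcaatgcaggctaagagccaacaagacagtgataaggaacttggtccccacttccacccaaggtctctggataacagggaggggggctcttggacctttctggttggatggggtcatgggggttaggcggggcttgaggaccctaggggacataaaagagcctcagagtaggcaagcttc
Cela1 (chr15:100687921-100688170, minus strand): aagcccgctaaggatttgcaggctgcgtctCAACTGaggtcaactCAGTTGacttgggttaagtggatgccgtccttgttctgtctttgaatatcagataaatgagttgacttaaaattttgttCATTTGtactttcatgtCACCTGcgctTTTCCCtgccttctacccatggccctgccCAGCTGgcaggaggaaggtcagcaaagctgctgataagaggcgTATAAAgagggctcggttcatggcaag
Prss1 (chr6:41458680-41458929, plus strand): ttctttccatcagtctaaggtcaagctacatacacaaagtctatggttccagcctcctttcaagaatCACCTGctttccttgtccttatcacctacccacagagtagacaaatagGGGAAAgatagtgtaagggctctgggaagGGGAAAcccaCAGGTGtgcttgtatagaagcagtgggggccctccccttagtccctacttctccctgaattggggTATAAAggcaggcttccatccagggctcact
Cela3a (chr4:137409792-137410041, minus strand): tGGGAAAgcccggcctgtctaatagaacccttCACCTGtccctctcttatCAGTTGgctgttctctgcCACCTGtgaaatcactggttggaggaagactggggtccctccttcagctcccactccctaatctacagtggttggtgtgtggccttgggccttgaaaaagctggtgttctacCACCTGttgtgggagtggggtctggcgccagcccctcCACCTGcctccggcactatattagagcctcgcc
Cela3b (chr4:137430521-137430770, minus strand): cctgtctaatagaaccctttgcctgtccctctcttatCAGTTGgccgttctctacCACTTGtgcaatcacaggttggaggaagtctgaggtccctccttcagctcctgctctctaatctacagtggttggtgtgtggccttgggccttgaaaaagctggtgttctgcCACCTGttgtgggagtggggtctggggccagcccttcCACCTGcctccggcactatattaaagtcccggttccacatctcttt
A match is a description of letters and not a binding site. In Cela3a, at a TPM of 0.13 and 0.06, the CANNTG and TTTCCC lie 25 bases apart. Cela3b, at 233 and 62.7, has no such pair in this window. TATAAA lies 27 bases before the start in Cela1 and 31 bases before it in Prss1.

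Acinar genes outside the list were also higher in replicate 1 where called. Of 14 such enzyme and granule genes that reached a TPM of 1 in either library, 7 were called higher in replicate 1 and none in replicate 2, with a median log2 ratio of 1.00. The stress protein gene Nupr1 was at 92.3 and 44.9, a fold of 2.06 (1.89 to 2.24). The pancreatic disulfide isomerase gene Pdia2, at 103 and 30.3, had a fold of 3.41 (3.17 to 3.66), Erp27, which acts with such isomerases, 2.51 (2.20 to 2.87), Tmed6 2.12 (1.92 to 2.34) and the granule lectin Zg16, also a goblet cell gene, 3.69 (2.92 to 4.69). The remaining called genes were the aquaporin gene Aqp12, at 9.28 and 2.54, and Tff2, which is also on the stomach list. Dmbt1, at 79.5 and 72.7, which the gut epithelium also makes, had a fold of 1.09 (1.07 to 1.12), and Reg2 had 0 counts in both libraries. Receptor genes of acinar cells did not share this direction. Of 4 that reached a TPM of 1 in either library, none was called and 2 had a positive ratio (median log2 ratio -0.03). The receptor for cholecystokinin, Cckar, was at 47.0 and 26.2, a fold of 1.80 (1.70 to 1.90). Prlr, at 25.9 and 28.8 (fold 0.898, 0.848 to 0.951), and Vipr1, at 5.09 and 5.80 (0.878, 0.784 to 0.982), were lower in replicate 1.

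Further regulators and secretory machinery genes were not called. Of 12 further regulators of acinar cells, none was called in either direction and the median log2 ratio was 0.02, with Xbp1 at 212 and 198, Gata4 at 36.7 and 35.6 and Nr5a2 at 8.58 and 8.73. Rbpj, the broadly expressed relative of Rbpjl, was at 19.1 and 22.6. None of 21 secretory machinery genes was called (median 0.08), with the chaperone gene Hspa5 at 853 and 876.

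Marker lists of other cells were set beside the members. None of 20 islet genes above a TPM of 1 was called, with a median log2 ratio of 0.22 and a summed TPM of 797 and 562. Ins2 was at 383 and 228 (fold 1.68, 1.60 to 1.78), Ins1 at 49.7 and 35.5 and Iapp at 63.3 and 45.3, while Mafa was at 0 and 0.04. The list also holds other hormone genes, such as Ghrl at 86.0 and 72.6 (fold 1.18) and Pyy at 62.3 and 47.9 (fold 1.30). The duct list (median 0.04, summed 1080 and 1012) and the progenitor list (median -0.05, summed 186 and 208, with Pdx1 at 2.66 and 2.50) had no called gene. Krt19, at 652 and 628, was the highest duct gene. Myc, at 82.5 and 90.1, and Hes1, at 46.3 and 56.5, were the highest progenitor genes, while Nkx6-1 was at 1.52 and 1.25. No pancreas was measured, so the part of the islet, duct and progenitor values that came from pancreatic cells cannot be told. Liver genes had a median of 0.40 and a sum of 1213 and 988, with Ahsg at 32.7 and 16.6 and Tat at 0 in both libraries. Stomach genes had a median of 0.46 over 6 genes and a sum of 38.7 and 25.2, and Tff2, at 6.45 and 2.07, was the only one called. The pancreas mesenchyme and spleen list went the other way, with a median of -0.15, a sum of 196 and 235 and no called gene, and Tcf21, a mesenchymal factor, was at 126 and 157 (fold 0.801, 0.766 to 0.837). Part of the islet, liver and stomach markers thus stood higher in replicate 1 and part of the mesenchyme and spleen markers lower, and their part in the difference of the members was not tested. Gut epithelium (median 0.10), gut muscle (median 0.00) and red cells (median 0.01) had no called gene. Single genes of these lists still differed: the embryonic globin genes Hbb-y, at 130.3 and 212, and Hba-x, at 30.3 and 40.6, were lower in replicate 1 (folds 0.615, 0.580 to 0.651, and 0.745, 0.663 to 0.837), and the enterocyte gene Apoa4, at 695 and 482, was higher (1.44, 1.42 to 1.47). The part of these differences in that of the members was not tested. Of 12 salivary and other gland markers, 11 were below a TPM of 1 and 7 had 0 counts in both libraries.

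**Figure D5:**
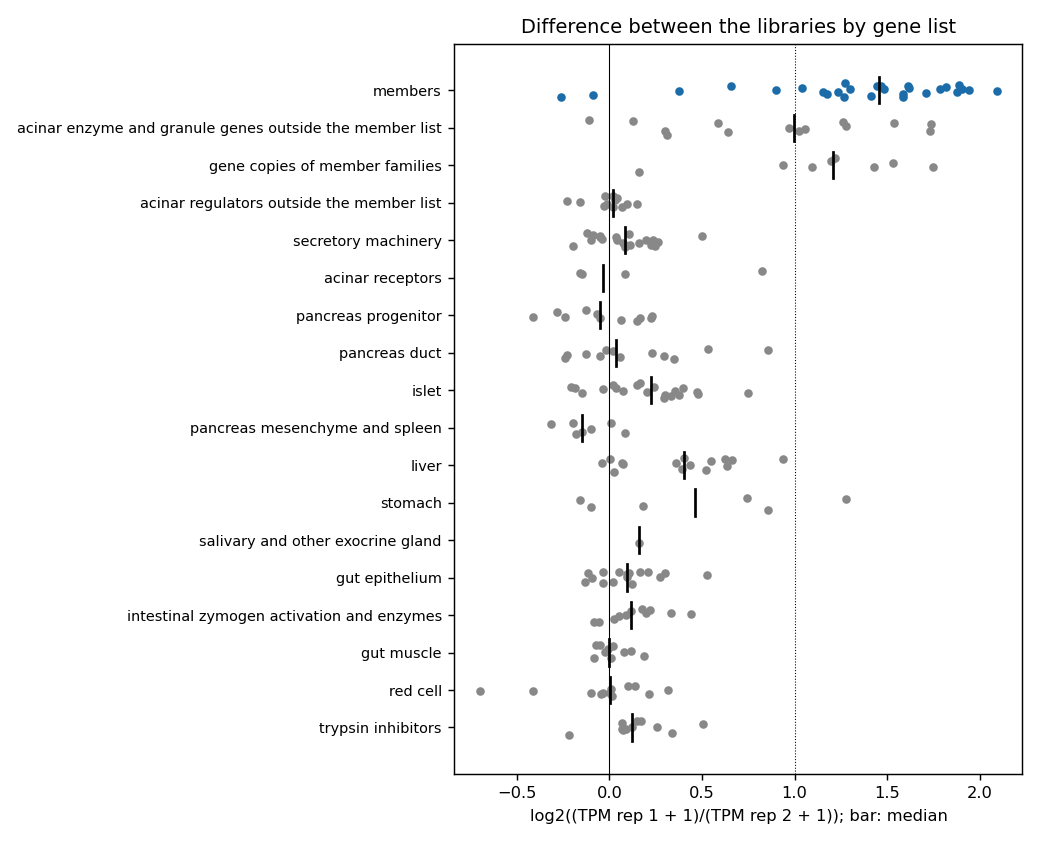
Log2 ratio of (TPM + 1) in replicate 1 over replicate 2 for each gene that reaches a TPM of 1 in either library (points), by list, with black bars at the medians and a dotted line at 2-fold. The medians are 1.45 for the members and 1.00 for the other acinar enzyme and granule genes, 0.22 for islet, 0.40 for liver and 0.10 for gut epithelium genes.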

How the data were processed

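Total RNA from 2 pools of embryonic day 15.5 intestine was measured in 1 library each. Extraction used the mirVana kit per the labels' protocols, with 10 ng of RNA per library, RNA over 200 nucleotides kept and spike-ins added. The authors deposited a gene and a transcript table per library. Per the readme deposited with them, they were made on mm10 with GENCODE M4. No source used here names the aligner, quantifier or strand setting. Per the file headers, the tables hold expected counts (estimated counts, in which reads shared by genes are split), TPM and FPKM, both also as posterior means, and the percent of a gene's output on each transcript. The deposited SD of the count and the bounds of TPM were taken as scores from the authors' quantifier. Spike-ins are part of the total to which TPM is scaled.

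Ensembl identifiers, versions removed, were matched to GENCODE M21 (GRCm38, which is mm10) for symbols and coordinates (98.0% of 43346 gene entries matched). The 26345 other entries (spike-ins and entries that name no mouse gene) were left out of gene comparisons. The list members, other lists and tests were chosen with earlier results of these data known. Ctrb2, Prss3b, Prss3l and Bapx1 of the other lists had no symbol in M21. With 1 group of 2 libraries no differential test was run. Folds carry a 95% exact binomial interval of the count ratio (scipy 1.17.1), for counting error only, since reads carry no stated molecular identifiers. Library totals were 34406872 and 40669822 estimated counts, at which 3 counts on 1 kilobase are a TPM of 0.125 and 0.107. The 2 libraries differed beyond sampling noise (chi-square of 18.3 per degree of freedom over 19707 genes). That value cannot tell variation between pools from other differences between the libraries. Both were kept as replicates because the labels give pools of 78 and 62 embryos. Both values and the fold were given for each regulator and each member whose mean TPM reached 10. From the other lists the rule named the highest members, those called 2-fold apart and some below a TPM of 1, and of all genes the 10 largest ratios. Not all genes it names are reported here. Scale alternatives used edgeR 4.0.16 (TMM) and DESeq2 1.42.0 (size factors) on expected counts rounded to whole numbers, with a pseudocount of 1 on the scaled values. Shared sequence was counted as 31-base words of M21 transcripts on both strands.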

Additional observations from a re-analysis of the deposited data

How the results depend on the processing

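The call of members higher in replicate 1 held under each scale, unit, pseudocount, filter and limit tried, and none of these called a member higher in replicate 2. The count was 23 of 28 in the report and 19 to 25 over those 11 alternatives. It was lowest with the spike-in total as scale (19 of 28), which moves the median log2 ratio of all genes from -0.02 to -0.25. The share of all genes called ranged from 0.496% to 2.82%, against 1.35% in the report. The part of all calls that lay toward replicate 1 was 58.4% in the report, 50% on the spike-in scale, 69.8% on count scales, 74.3% with posterior mean TPM and 68.8% with a TPM of at least 5. With amylase and trypsinogen entries summed per family it was 18 of 23 units. With the 17 testable members that share under 10% of their words with other genes it was 13, a smaller count because fewer genes were tested (chosen after seeing the data). Single log2 ratios of 24 members kept their direction in 192 alternatives. In 30 of these they moved by more than 50% of the width of their counting interval. Most of the moves were on the spike-in scale, where every one of the 24 except Try4 moved, such as Clps from 1.62 to 1.37 and Spink1 from 0.37 to 0.12. The other moves were in Pnliprp1, Ctrb1 and Amy2a5. The printed folds and intervals thus hold for the TPM scale. Detected members numbered 21 to 28 over the limits, units and single libraries tried, and the members' share of TPM was 0.509% without replicate 1 and 1.34% without replicate 2. A ratio between libraries cannot be had with 1 library left out. No paired analysis was possible because the samples form 1 group. Depth limits Pla2g1b, Ctrc, Gp2, Cuzd1, Pnlip and Cela3a, which had at most 31 counts in each library, and Ctrl, which had 12 in replicate 2.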
